A study of Mus musculus with 2 samples.

Results

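The cells described here are stromal cells of the newborn mouse kidney, chosen by their unique molecular identifiers (UMIs, the tags that mark single captured transcripts). A cell was kept when it held at least 1 UMI of the collagen gene Col3a1 and UMIs of at least 3 of 8 genes used for medullary-type stroma, among them Penk, Ecm1, Mgp, Ptn, Mfap4, Cygb and Fibin. It had to hold UMIs of at most 2 of 6 genes of another stromal group (Dcn, Lum, Col14a1, Fbln5, Thbs2 and Igfbp3) and of at most 2 of 8 genes of dividing cells (Mki67, Top2a, Cdk1, Cenpf, Birc5, Ube2c, Nusap1 and Cenpa), and cells with a doublet score over 1 were dropped. The rule selected 2041 of 14565 cells. These were 1258 of 9071 cells in the control library and 783 of 5494 cells in the library exposed to maternal diabetes. Both libraries were made from whole kidney of male C57BL/6J mice at postnatal day 2, the labels naming 1 kidney for each group and also pooled cells. The sources used here do not say how the mothers were made diabetic or whether cells of several animals were joined. With 1 library per group no test between the groups was possible, and every interval below covers counting error only.

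The stroma of the kidney is the mesenchyme between the tubules and vessels, and it differs from cortex to papilla. Much of it descends from Foxd1-expressing progenitors, and the medullary stroma lies around the loops of Henle and collecting ducts, where Wnt signals between epithelium and stroma take part in shaping the medulla. Penk encodes proenkephalin, the precursor of the enkephalin opioid peptides; Ecm1 encodes a secreted matrix protein, Mgp a matrix protein that holds back calcification and binds bone morphogenetic proteins, Ptn the growth factor pleiotrophin, Mfap4 a microfibril-associated protein, Cygb the oxygen-binding protein cytoglobin, and Fibin a secreted protein.

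The share of selected cells was alike in the libraries. It was 13.9% of the control cells (95% Clopper-Pearson interval 13.2 to 14.6) and 14.3% of the exposed cells (13.3 to 15.2), a difference of 0.384 percentage points (Newcombe interval -0.773 to 1.56) that lies within counting error. The cells of the exposed library were deeper, with a median of 3541 UMIs per selected cell against 2671.5 in the control, and a smaller median percent of mitochondrial UMIs, 4.57% against 6.08%. The doublet score removed 64 control and 28 exposed cells that met the rest of the rule. The libraries shared 14 cell barcodes, and 1 of these was a selected cell in both. In the authors' own clusters, which carry no names, 1237 of the 1258 control cells fell in 1 cluster and 780 of the 783 exposed cells in 1 cluster, making up 46.3% and 48.3% of those clusters.

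The genes of the rule were not equally common in the cells that it selected. Ptn had a UMI in 95.1% of the control and 95.9% of the exposed cells, and Mgp in 87.8% and 89.9%. Mfap4 was found in 71.4% and 74.5% and Ecm1 in 64.0% and 69.5%. Fibin was found in 53.2% and 61.8% and Cygb in 49.5% and 64.9%. Penk, for which the cells were labelled, had a UMI in only 453 control cells (36.0%, 33.4 to 38.7) and 297 exposed cells (37.9%, 34.5 to 41.4). For shares at equal depth, each cell with at least 2000 UMIs was thinned to 2000 and shallower cells were left out, which kept 1033 of the 1258 control and 733 of the 783 exposed cells; thinned values of the selected cells rest on these unequal subsets. Penk was then found in 32.3% and 31.5%, Fibin in 45.3% and 46.1%, Cygb in 40.9% and 47.1%, Ecm1 in 58.1% and 56.6%, and Mfap4 in 61.0% and 58.5%. Of these 5 genes Cygb differed most between the libraries at equal depth. In endothelial cells, taken for comparison (at least 3 endothelial markers and no Col3a1, median 2545 and 3144 UMIs), Penk had a UMI in 0.149% and in 0 of 466 cells. A count of 0 there allows a share of up to 0.644% by the limit of 3 counts, and the upper end of the Clopper-Pearson interval is 0.788%. Ptn had one in 14.1% and 13.9% of these cells and Ecm1 in 13.9% and 18.9%, the highest shares of the 7 named genes there. Whether these UMIs are background or expression of the endothelial cells was not tested.

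The rule therefore took in most stromal cells outside the Dcn group and not a Penk population alone. It selected 90.9% of the control and 94.5% of the exposed non-cycling Col3a1 cells with few Dcn-group genes. Foxd1, the marker of cortical stromal progenitors, had a UMI in 8.03% and 10.1% of the selected cells and Ntn1, which encodes the guidance cue netrin-1, in 7.47% and 6.64%. Of all cells with a Col3a1 UMI and a UMI of Foxd1 or Ntn1, 52.6% and 56.0% were among the selected cells. The data thus go partly against a name of medullary stroma for the whole, and the cells are called the selected stromal cells here, with those holding Penk described apart.

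**Figure D1:**
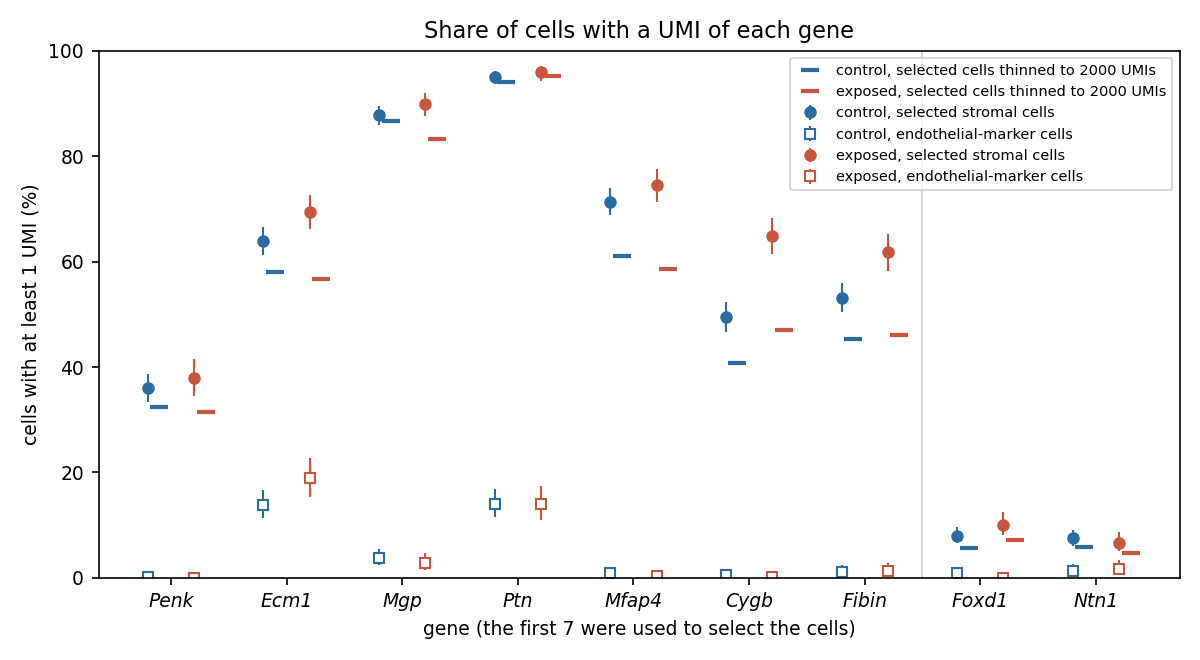
Percent of cells with at least 1 UMI of each gene (y axis) for 7 of the genes used to select the cells and for Foxd1 and Ntn1 (x axis), in the selected stromal cells (filled circles) and in endothelial cells (open squares) of the control (blue) and exposed (red) libraries; vertical lines are 95% Clopper-Pearson intervals and dashes the selected cells thinned to 2000 UMIs. Ptn is found in over 95% of the selected cells and Penk in 36.0% and 37.9%, while Penk is close to 0 in endothelium.

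The edges of the rule lay within a continuum of counts. In the control library 128 selected cells held exactly 3 of the 8 medullary genes and 52 cells just outside the rule held 2, against 44 and 19 in the exposed library. There were 270 control and 99 exposed selected cells with a single Col3a1 UMI, beside 187 and 76 cells that met the rest of the rule with none. At the limit of 2 Dcn-group genes stood 368 and 268 selected cells, with 187 and 114 cells just beyond at 3. At the limit of 2 cycling genes stood 139 and 55 selected cells, with 82 and 43 just beyond.

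Markers of other kidney cells were low in the selected cells but not at 0, and most were lower in the exposed library. The summed level of 9 proximal tubule markers was 185 UMIs per 1000000 UMIs of these cells (CPM) in the control and 84.7 CPM in the exposed selected cells, against 3693 and 2988 CPM in all other cells. The 6 loop and distal tubule markers summed to 121 and 48.4 CPM, the 8 collecting duct markers to 104 and 55.6 CPM, the 8 podocyte markers to 106 and 99.0 CPM, the 8 nephron progenitor markers to 17.9 and 25.8 CPM, the 8 macrophage markers to 24.9 and 8.25 CPM and the 8 endothelial markers to 85.7 and 62.4 CPM. In these lists no gene was at 0 in the control library, and 1 gene each of the proximal tubule, collecting duct, podocyte, nephron progenitor and macrophage markers was at 0 in the exposed library. The 10 smooth muscle, pericyte and renin-cell markers summed to 2034 and 2137 CPM, led by Acta2, and the 5 mesangial markers to 414 and 412 CPM, led by Pdgfrb. Blood cell transcripts came from few cells: 868 of the 911 erythroid and neutrophil UMIs of the control cells lay in 5 cells, and the exposed cells held 16 in all.

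Within the selected cells, those with a Penk UMI differed in many other genes from those without, and in the same direction in both libraries. The 453 and 297 cells with Penk and the 805 and 486 cells without it had similar depth, with medians of 2695 and 2662 UMIs for the control and 3626 and 3518 for the exposed library. A gene was counted as past the fold when the log2 ratio of its CPM, with 10 CPM added to each level, was at least 1 or at most -1 in both libraries. Of 7216 genes with at least 50 UMIs, 38 were past the fold upward in cells with Penk (0.527%) and 16 downward (0.222%), among them Penk and Dcn upward and Mgp and Igfbp3 downward, which belong to the rule. How many of all genes lay above or below 0 in both libraries was not counted for this or the later comparisons of groups. List counts on that scale therefore have no background beside them. Because Penk is itself 1 of the 8 genes, a cell without it needed 3 of the other 7. Mgp stood lower in cells with Penk (1305 against 2909 CPM in the control, 1375 against 3014 CPM in the exposed library). The part of the rule in that difference was not tested.

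Highest in cells with Penk were Nts, Cxcl14, Col15a1, Alx1, Ncam1, Nav3 and Dclk1, among others. Nts, the precursor of the peptide neurotensin (chromosome 10, 102481756 to 102490486, minus strand, GRCm38), stood at 125 CPM with Penk and 5.96 CPM without in the control library. In the exposed library it stood at 165 CPM with Penk and had no UMI in the 486 cells without. The chemokine gene Cxcl14 stood at 159 against 14.2 CPM in the control and 123 against 5.91 CPM in the exposed library. Col15a1, a basement membrane-associated collagen, stood at 122 against 8.26 CPM and 97.7 against 5.91 CPM. All 3 were thus more than 10 times lower in cells without Penk, in both libraries.

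Alx1, a homeobox gene of mesenchyme (chromosome 10, 102998707 to 103030215, minus strand, GRCm38), stood at 125 CPM with Penk and 17.9 CPM without in the control, and at 153 and 29.0 CPM in the exposed library. It had a UMI in 24.5% (20.6 to 28.7) of the control cells with Penk and 3.73% of those without, and in 33.7% (28.3 to 39.4) and 7.82% in the exposed library. Ncam1, a cell adhesion molecule, stood at 138 against 25.2 CPM and 143 against 20.7 CPM. Nav3, a neuron navigator gene, stood at 74.9 against 3.67 CPM and 53.0 against 2.37 CPM, and the microtubule-associated kinase gene Dclk1 at 79.0 against 9.17 CPM and 54.8 against 7.10 CPM.

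Medullary stroma markers that the rule did not use went with Penk. All 11 measured genes of that list were above 0 on the log2 scale in both libraries and 5 were past the fold (Alx1, Wnt4, Lef1, Cdkn1c and Wnt11), with list medians of 1.24 (control) and 1.10 (exposed) beside 0.04 and 0.01 over all genes. Wnt4, a signal of the medullary stroma and of early nephrons, stood at 47.2 against 5.05 CPM in the control and 60.3 against 2.37 CPM in the exposed library, and it was carried by few cells, 6.40% and 5.72% of those with Penk. Lef1, a transcription factor of the Wnt pathway, stood at 42.4 against 7.34 CPM and 45.7 against 7.10 CPM. Wnt11 stood at 39.9 against 10.5 CPM and 54.8 against 9.46 CPM. The posterior homeobox genes Hoxa10, Hoxa11, Hoxd10 and Hoxd11 were also higher with Penk, with log2 ratios of 0.58 to 1.10, short of the fold in at least 1 library. Bmp4 differed least, with log2 ratios of 0.08 and 0.45. The 9 measured cortical stroma markers were not lower with Penk as a sum. They stood at 799 against 595 CPM in the control and 736 against 595 CPM in the exposed library. Sfrp1 alone gave 413 against 227 CPM and 423 against 223 CPM of these sums, and sums without it were not compared. Smoc2, of that list, was past the fold upward (72.5 against 12.4 CPM, and 36.5 against 5.32 CPM), and no gene of it was past the fold downward. The split by Penk is thus not shown to part medullary from cortical stroma.

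The Wnt pathway was split between the cells with and without Penk. Of 22 measured genes of the Wnt list 4 were past the fold upward with Penk (Wnt4, Wnt11, Lef1 and the feedback inhibitor Nkd1) and 3 downward, all secreted antagonists. Dkk2 (chromosome 3, 132085292 to 132180304, plus strand, GRCm38) stood at 3.26 CPM with Penk and 42.7 CPM without in the control, and at 10.0 and 65.6 CPM in the exposed library. Dkk1 stood at 75.8 against 220 CPM and 86.7 against 231 CPM, and Sfrp2 at 10.6 against 35.8 CPM and 6.39 against 40.8 CPM. Another antagonist, Sfrp1, went the other way, at 413 against 227 CPM and 423 against 223 CPM, below the fold. The median of the whole list was 0.05 and 0.09, near that of all genes.

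Cells without Penk held more Cxcl12, Ccl2 and Ccl11 and more of the mesangial markers, while the smooth muscle, pericyte and renin-cell markers were split. Cxcl12, a chemokine that guides vessels and blood cells, stood at 60.3 CPM with and 182 CPM without Penk in the control and at 76.7 and 191 CPM in the exposed library. Ccl2 (1.63 against 27.1 CPM, and 2.74 against 24.8 CPM) and Ccl11 (13.8 against 47.2 CPM, and 2.74 against 31.9 CPM) were lower with Penk as well, as was the tetraspanin-like gene Tm4sf1 (198 against 516 CPM, and 153 against 527 CPM). All 5 mesangial markers were below 0 in both libraries, with medians of -0.86 and -0.83; Akr1b7 had no UMI in cells with Penk and 11.9 and 16.0 CPM in those without. Of the 10 smooth muscle, pericyte and renin-cell markers 3 were above 0 and 5 below 0 in both libraries, with medians of -0.36 (control) and -0.09 (exposed). Tagln, a smooth muscle actin-binding protein, was past the fold upward (289 against 135 CPM, and 315 against 133 CPM) and Cspg4, the pericyte proteoglycan NG2, downward (11.4 against 35.3 CPM, and 11.0 against 36.7 CPM). Acta2, the most abundant of these markers, stood higher with Penk, short of the fold, at 964 against 516 CPM and 1031 against 535 CPM.

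**Figure D2:**
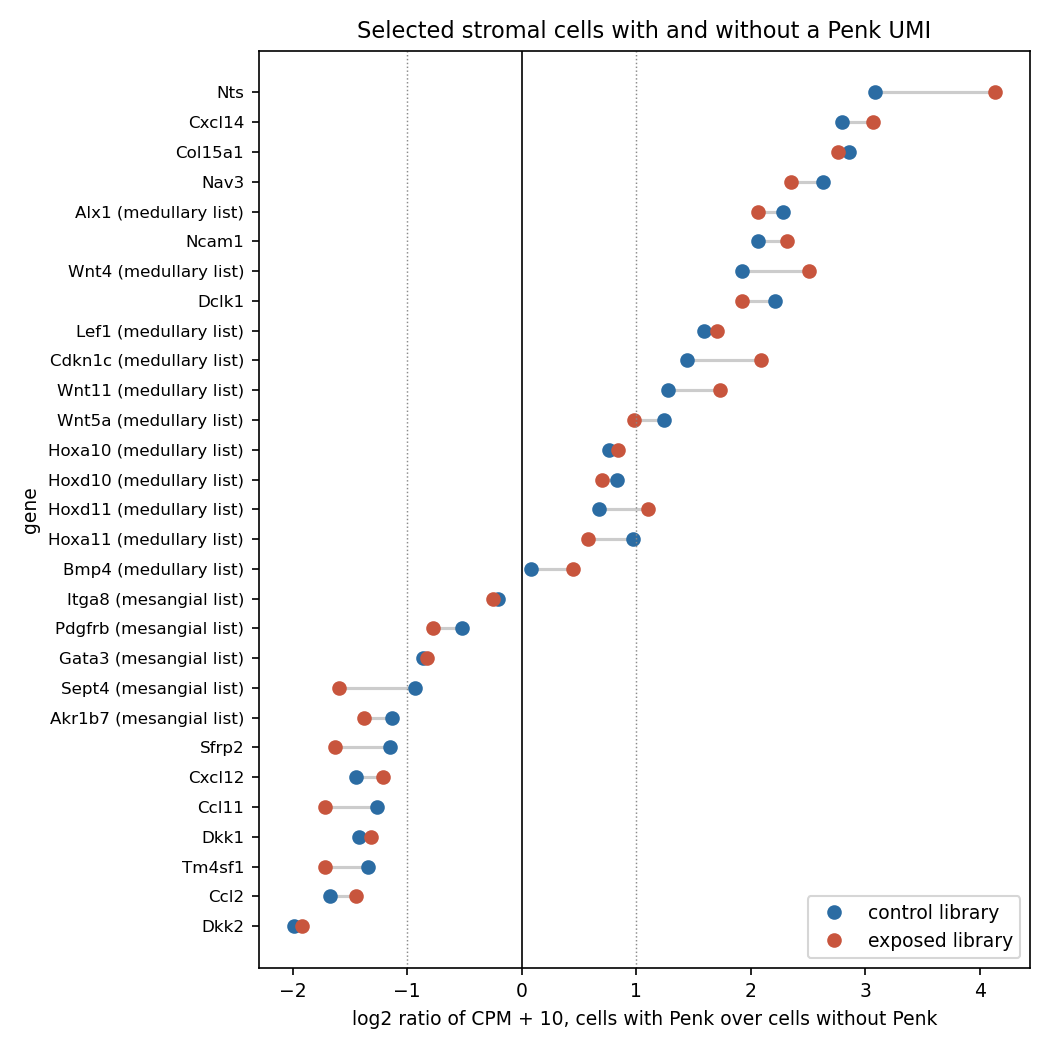
Log2 ratio of CPM with 10 CPM added, selected cells with a Penk UMI over those without (x axis), for the 8 highest and 8 lowest genes and for the medullary and mesangial marker lists (y axis), in the control (blue) and exposed (red) libraries; each point is 1 library, lines join the libraries, and dotted lines mark log2 ratios of -1 and 1. All 11 medullary-list genes lie right of 0 and all 5 mesangial-list genes left of it in both libraries.

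Fibrillar collagen genes and S-phase genes were slightly higher in cells with Penk. All 11 measured fibrillar and interstitial collagen genes were above 0 in both libraries, and none was past the fold. Their medians were 0.34 and 0.50, above those of all genes given for this split. Col1a1 stood at 899 against 722 CPM in the control and 891 against 681 CPM in the exposed library. The other matrix lists were less even: of 20 matrix glycoprotein and proteoglycan genes 12 were above 0 and 4 below 0 in both libraries, and the medians had opposite signs in the libraries for basement membrane genes (0.15 and -0.05) and for collagen processing genes (0.09 and -0.04). Of 20 S-phase genes 18 were above 0 in both libraries, with medians of 0.33 and 0.27. The mitochondrially encoded genes differed by library, with medians of -0.32 (control) and 0.00 (exposed).

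A planned comparison with stromal cells that held Foxd1 or Ntn1 but at most 2 medullary genes could not be made, since only 11 control and 5 exposed cells met that description. In its place, a split chosen after the data were seen set the 391 control and 263 exposed selected cells with Penk and neither Foxd1 nor Ntn1 against the 118 and 88 with Foxd1 or Ntn1 and no Penk. Of 5818 genes 54 were past the fold upward (0.928%) and 24 downward (0.413%). Nts, Cxcl14, Col15a1, Alx1, Nav3, Ncam1 and Dclk1 led the upper side again, and Alx1 stood at 135 against 3.08 CPM in the control and 166 against 6.43 CPM in the exposed library. The lower side held Cxcl12 (57.8 against 302 CPM, and 62.4 against 315 CPM), the reelin gene Reln (29.4 against 105 CPM, and 25.6 against 103 CPM) and the imprinted growth-related RNA H19 (187 against 475 CPM, and 132 against 341 CPM). Most of the cells compared are those of the split by Penk, so these values are no independent evidence.

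Against Dcn-rich stroma (421 control and 318 exposed cells with at least 3 Dcn-group genes) the selected cells held fewer transcripts of the matrix. Of 7549 genes 15 were past the fold upward in the selected cells (0.199%) and 128 downward (1.70%). The Dcn-rich cells were not limited in cycling genes as the selected cells were, so the downward genes include mitotic ones set by the rule, such as Ube2c, Nusap1, Cenpf, Birc5 and Top2a. Against the 366 and 275 Dcn-rich cells with at most 2 cycling genes, a comparison added after the data were seen, 20 genes of 7459 were past the fold upward (0.268%) and 119 downward (1.60%), and none of those 5 was among the latter. Of 22 measured matrix glycoprotein and proteoglycan genes outside the rule 9 were past the fold downward and 21 were below 0 in both libraries, with medians of -0.85 and -1.15 beside -0.06 and -0.08 over all genes. Of 11 fibrillar collagens 5 were past the fold downward, with medians of -0.93 and -1.20. With the Dcn-rich cells limited in cycling genes the medians were -1.05 and -1.32 for the glycoproteins and -1.03 and -1.34 for the collagens. The groups were set apart by the Dcn-group genes, several of which are matrix genes themselves. The matrix values therefore describe how the groups were made and are no independent evidence. Lox, the collagen cross-linking enzyme, stood at 30.5 CPM in selected and 158 CPM in Dcn-rich cells of the control and at 23.3 and 180 CPM in the exposed library. Tnc, the matrix glycoprotein tenascin-C, stood at 21.1 against 117 CPM and 14.7 against 120 CPM. Higher in the selected cells were Aldh1a2, the retinoic acid-forming enzyme of stroma (133 against 47.4 CPM in the control, log2 ratios 1.31 and 1.32), Dkk1 (168 against 52.1 CPM, and 174 against 59.6 CPM) and the tendon transcription factor gene Scx (40.2 against 9.30 CPM, and 52.8 against 7.69 CPM). Penk itself did not set the groups apart, with a UMI in 32.3% and 33.6% of Dcn-rich cells.

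The cycling stroma met the same rule but held at least 3 of the 8 cycling genes, in 465 control and 239 exposed cells of median depth 3990 and 5113 UMIs. Of 7580 genes 13 were past the fold upward in the selected cells (0.172%) and 200 downward (2.64%), the latter led by mitotic genes that go with those of the rule. Several genes of the Penk cells were also low in cycling cells. Nts stood at 49.0 CPM in selected and 2.14 CPM in cycling cells of the control and at 65.0 and 3.33 CPM in the exposed library, and Cxcl14 at 66.3 against 5.34 CPM and 52.0 against 11.7 CPM. Tagln (190 against 46.4 CPM, and 205 against 13.3 CPM) and the smooth muscle actin gene Actg2 (19.1 against 2.67 CPM, and 13.6 CPM against no UMI) were lower in cycling cells too. The proteoglycan osteoglycin, Ogn, stood at 76.6 against 16.5 CPM and 76.8 against 20.0 CPM. Penk had a UMI in 44.3% and 42.7% of cycling cells, and in 30.5% and 26.0% after thinning to 2000 UMIs.

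Between the libraries most genes of the selected cells differed little. Of 7216 genes 28 were higher by a log2 ratio of at least 0.5 in the exposed library (0.388%) and 102 lower by as much (1.41%), and the median log2 ratio was 0.01. The counts rose to 73 higher and 133 lower in the selected cells thinned to 2000 UMIs and to 88 and 147 with the rule applied to thinned cells. The exact interval of the ratio lay above 1 for 585 genes (8.11%) and below 1 for 509 (7.05%), and 3480 of the 7216 genes (48.2%) had a log2 ratio below 0 and 3736 (51.8%) above 0. Among the 7 named medullary genes of the rule the ratios lay between 0.964 and 1.13. Penk stood at 493 CPM in the control and 475 CPM in the exposed library (ratio 0.964, exact interval 0.896 to 1.04), Ecm1 at 646 and 680 CPM, Mgp at 2331 and 2370 CPM and Ptn at 3855 and 4007 CPM. Mfap4 stood at 601 and 581 CPM, and Cygb, at 314 and 355 CPM, and Fibin, at 359 and 406 CPM, both had ratios of 1.13. Since each cell had to hold some of these genes, their levels are a description of the selection. The ratio intervals take UMIs as independent, which understates the error of genes whose UMIs lie in a handful of cells.

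The higher genes were led by interferon-induced genes that were higher in the other cells as well. Ifi27l2a stood at 48.4 CPM in the control and 111 CPM in the exposed cells (ratio 2.30, 1.90 to 2.79), with a log2 ratio of 1.05 here and 1.00 in all other cells. Isg15, a ubiquitin-like protein induced by interferon, stood at 3.81 and 18.7 CPM (ratio 4.89, 2.63 to 9.79), from 13 and 52 UMIs, with log2 ratios of 1.05 here and 0.93 in all other cells. Of 12 measured genes of the interferon list, which holds Isg15 but not Ifi27l2a, 8 were higher and 1 was past the fold. The shares over all genes were 51.8% and 0.388%, and the list median was 0.13. In all other cells the median was 0.35, and in the selected cells with Penk it was -0.14. Oasl2 stood at 18.8 and 30.5 CPM and Bst2 at 59.6 and 86.8 CPM, while the abundant Ifitm2 and Ifitm1 were lower, at 549 and 475 CPM for Ifitm1.

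The other 10 genes named as highest came from small counts. Pam, the enzyme that amidates peptide hormones, stood at 12.3 and 27.3 CPM (log2 ratio 0.74), and Kdelc2, an endoplasmic reticulum glycosyltransferase, at 29.9 and 52.4 CPM (ratio 1.75, 1.35 to 2.28). Both were also higher in all other cells, with log2 ratios of 0.54 and 0.53. Idi1, of isoprenoid and sterol synthesis, stood at 12.9 and 23.7 CPM and the carboxypeptidase inhibitor gene Lxn at 19.4 and 33.0 CPM. Ankrd46, Pir, Nabp1 and Ankrd39, with log2 ratios of 0.56 or 0.57 here, had log2 ratios of -0.02 to 0.02 in all other cells, and that difference was not tested. In Dcn-rich stroma the log2 ratio was 0.57 for Ankrd46 and 0.44 for Pir, and in cycling stroma it was 0.33 for Ankrd46 and 0.35 for Ankrd39. Ubxn2a and Pgm2 stood at 0.59 and 0.56.

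Among the genes named as lowest, several encode proteins of tubule epithelium. S100g, the calcium-binding calbindin-D9k of the distal tubule, stood at 101 and 38.0 CPM (ratio 0.376, 0.299 to 0.468), with UMIs in 173 control and 50 exposed cells. Wfdc2 stood at 24.4 and 5.02 CPM, the collecting duct water channel gene Aqp2 at 17.6 and 2.51 CPM, and Fxyd2 and Atp1b1, subunits of the sodium pump, at 98.3 and 44.9 CPM and at 22.6 and 8.61 CPM. Npnt, which encodes the matrix protein nephronectin, stood at 12.9 and 2.87 CPM. In all other cells their log2 ratios lay between -0.34 and 0.01, but the stromal groups outside the selection shared several of the lower values. In Dcn-rich stroma the log2 ratio was -1.08 for S100g, -0.96 for Fxyd2 and -0.61 for Wfdc2, against 1.05 for Aqp2. In cycling stroma Fxyd2 stood at 55.0 and 22.5 CPM and Aqp2 at 13.3 and 1.67 CPM in the control and the exposed library, and the log2 ratio was -0.66 for S100g and 0.65 for Wfdc2. The part of tubule transcripts from outside these cells in the values was not tested. Ly6a, which encodes Sca-1, a surface protein of vessels and some progenitors, stood at 22.0 and 3.59 CPM, and endothelial markers were lower too (85.7 and 62.4 CPM summed), their part in it not being tested.

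**Figure D3:**
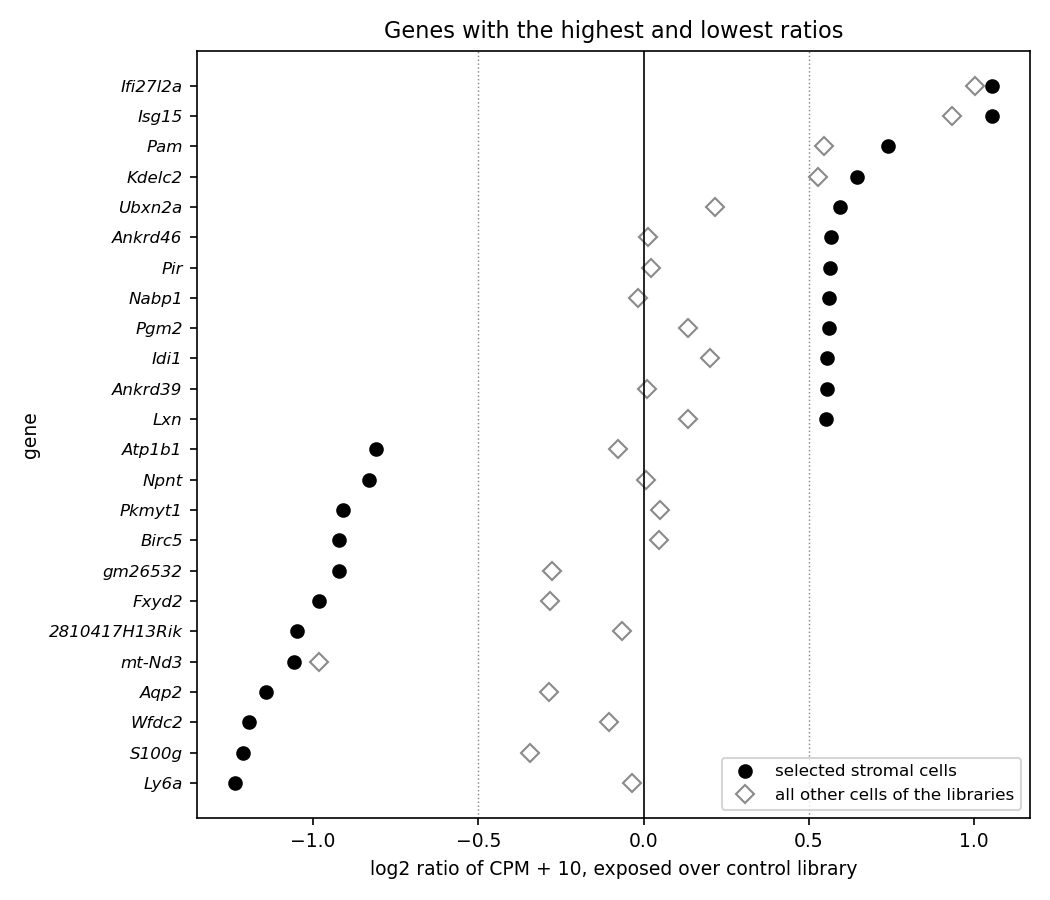
Log2 ratio of CPM with 10 CPM added, exposed over control library (x axis), for the 12 highest and 12 lowest genes by the naming rule (y axis), in the selected stromal cells (filled circles) and in all other cells of the libraries (open diamonds); dotted lines mark -0.5 and 0.5. Ifi27l2a, Isg15 and mt-Nd3 have like ratios in both; Birc5 is a gene of the selection rule, so its place is set in part by the selection.

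Genes of the cell cycle were lower in the exposed selected cells, although cells with 3 or more of the 8 cycling genes had been removed. Of 20 measured S-phase genes 19 were lower, 6 of them past the fold and 11 with an interval below 1 (over all genes 48.2% were lower, 1.41% past the fold and 7.05% with such an interval), and the list median was -0.29. Pcna, the sliding clamp of the replication fork, stood at 96.8 and 54.5 CPM (ratio 0.563, 0.462 to 0.685), Rrm2, a subunit of ribonucleotide reductase, at a ratio of 0.486 (0.358 to 0.653), and Uhrf1, which helps maintain DNA methylation, at 38.4 and 20.5 CPM. 2810417H13Rik, a PCNA-binding factor, stood at 137 and 61.0 CPM (ratio 0.445, 0.371 to 0.532), and Pkmyt1, a kinase that holds back entry into mitosis, at 22.3 and 7.18 CPM. Genes of the rule such as Top2a and Birc5 are left out here, since the selection limits them.

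The S-phase difference was of like size in cells with Penk (-0.32) and without (-0.32). The median of the list was 0.04 in Dcn-rich stroma, 0.12 in cycling stroma and 0.15 in all other cells, and these contrasts were not tested. None of these groups was held to the limit on cycling genes, and cycling stroma was defined by exceeding it. Their values are therefore not a like comparison for the selected cells. The rule removes dividing cells by the number of genes detected, and the exposed cells were deeper. Selected cells with exactly 2 cycling genes made up 11.0% of the control and 7.02% of the exposed cells. In cells with no cycling gene at all the S-phase median was -0.34, and with the whole rule applied to cells thinned to 2000 UMIs it was -0.36. Among selected and cycling cells together, cycling cells made up 27.0% (465 of 1723) of control and 23.4% (239 of 1022) of exposed cells, a difference of -3.60 points (-6.89 to -0.223), and 22.3% and 17.8% after thinning, a difference of -4.46 points (-7.79 to -1.03).

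The genes of the mitochondrial genome were lower in the exposed cells throughout. All 13 were lower and 8 were past the fold, beside 48.2% and 1.41% of all genes, with a list median of -0.51. mt-Atp6 stood at 28833 and 18879 CPM, mt-Cytb at 12814 and 8315 CPM and mt-Nd3 at 497 and 234 CPM (ratio 0.470, 0.429 to 0.515). The median was -0.45 in all other cells and -0.56 in Dcn-rich stroma. It was -0.32 in selected cells with Penk and -0.69 in those without, a difference that was not tested, and -0.37 without the 43 control and 12 exposed cells over 25% mitochondrial UMIs. Nuclear genes of the respiratory chain were lower by little, 26 of 38 with a median of -0.09 and none past the fold. Of the 38, 16 had an interval below 1, beside 7.05% of all genes.

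Genes of the matrix were mostly lower by small amounts. The glycoprotein and collagen lists hold genes of the selection rule, Fbln5 and Col3a1 among them, whose levels the selection shapes. The part of such genes in the counts was not tested. Of 26 measured glycoprotein and proteoglycan genes 20 were lower and 12 had an interval below 1, beside 48.2% and 7.05% of all genes, with 2 past the fold and a median of -0.16 that was -0.07 after thinning to 2000 UMIs. Postn, the matrix protein periostin, stood at 55.5 and 28.4 CPM (ratio 0.511, 0.388 to 0.668) and Smoc2, a calcium-binding matrix protein, at 34.0 and 17.6 CPM. Of 13 fibrillar and interstitial collagens 10 were lower, none past the fold, with a median of -0.17 that was -0.03 after thinning to 2000 UMIs; Col6a3 stood at 133 and 107 CPM, while Col1a2 stood at 820 and 850 CPM. Of 11 basement membrane genes 9 were lower (median -0.12). Of 16 genes of insulin-like growth factor signalling 12 were lower, none past the fold, with a median of -0.21. The binding protein genes Igfbp2 and Igfbp3 stood at 30.8 and 20.1 CPM and at 262 and 199 CPM, the latter being 1 of the genes that limited the selection, and Igfbp4 stood at 855 and 888 CPM.

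Lists with positive medians held few or no genes past the fold. Over all genes 51.8% were higher, 0.388% past the fold upward and 8.11% with an interval above 1. Of 17 sterol and lipid synthesis genes 14 were higher, with a median of 0.24 and Idi1 past the fold; Hmgcs1, an early enzyme of cholesterol synthesis, stood at 34.6 and 50.6 CPM (ratio 1.46, 1.14 to 1.88). The list median was 0.19 in all other cells and 0.07 in the selected cells with Penk. Of 13 glycolysis genes 11 were higher (median 0.13), with Aldoa at 282 and 342 CPM and Ldha at 503 and 488 CPM. Of 15 heat shock genes 11 were higher (median 0.13), led by Hspa1a at 2438 and 3328 CPM, with a median of 0.18 in all other cells. Of 45 cytosolic ribosome genes 37 were higher and 34 had an interval above 1. Their median was 0.09, and 0.13 in all other cells. Immediate early genes, which respond to tissue dissociation, were split, 13 of 25 higher with a median of 0.01. Their median was 0.26 in all other cells, -0.17 in Dcn-rich stroma and 0.10 in cycling stroma.

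**Figure D4:**
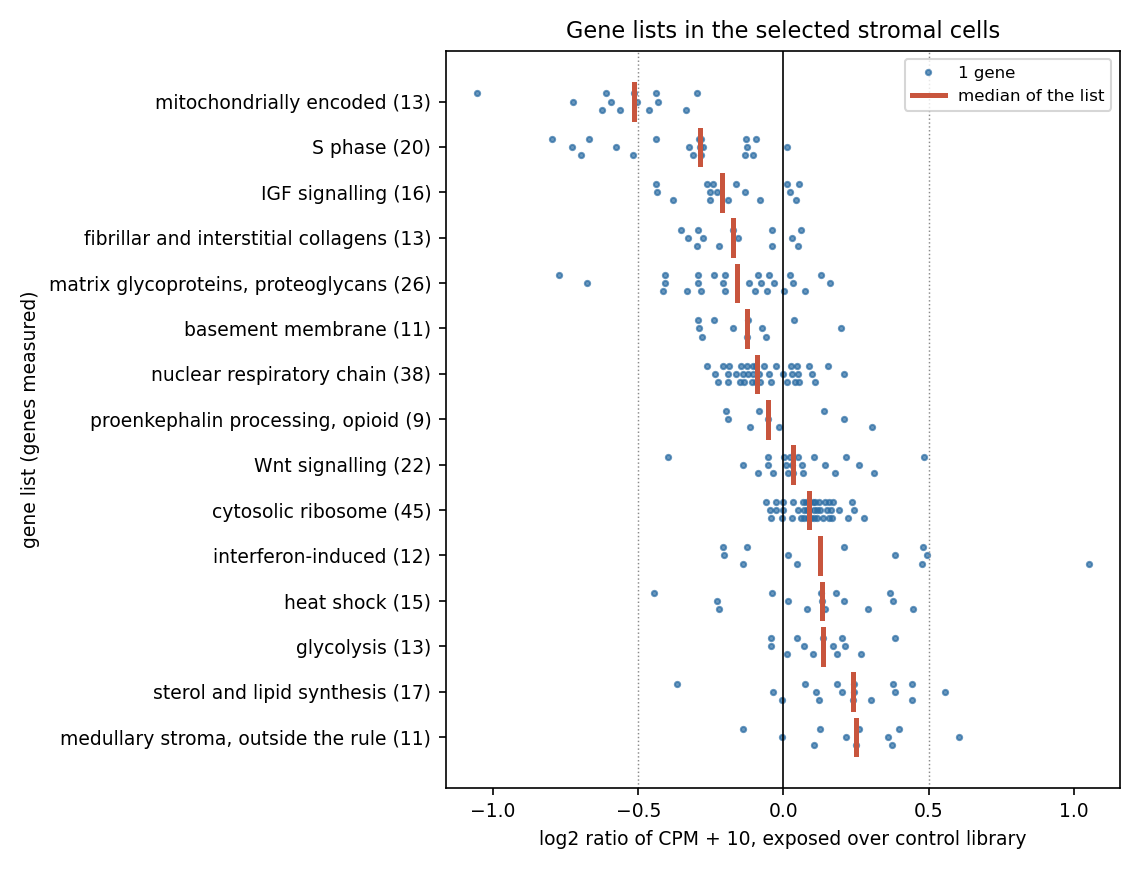
Log2 ratio of CPM with 10 CPM added, exposed over control library (x axis), for each measured gene (points) of 15 gene lists (y axis, with the number of genes measured) in the selected stromal cells; red bars are list medians and dotted lines mark -0.5 and 0.5. The mitochondrially encoded list lies lowest, at a median of -0.51, and the medullary list outside the rule highest, at 0.25. The matrix glycoprotein, collagen, insulin-like growth factor and proenkephalin lists hold genes of the selection rule.

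Medullary markers that the rule did not use were slightly higher in the exposed library, 9 of 11 beside 51.8% of all genes. Their median was 0.25 (0.15 in all other cells). It was 0.27 in selected cells with Penk (11 genes measured) and 0.08 in those without (8 genes). In Dcn-rich stroma it was 0.19 (9 genes) and in cycling stroma 0.08 (8 genes), and these contrasts were not tested. Alx1 stood at 56.6 and 77.9 CPM (ratio 1.38, 1.13 to 1.68), with a UMI in 9.39% and 12.01% of cells after thinning. Hoxa11 stood at 23.2 and 33.0 CPM and Bmp4 at 31.1 and 42.7 CPM (ratio 1.37, 1.05 to 1.80), while Wnt5a stood at 32.3 and 28.4 CPM. Tcf21, a transcription factor of kidney stroma on another list, stood at 772 and 1041 CPM (ratio 1.35, 1.28 to 1.42), with log2 ratios of 0.43 here and 0.36 in all other cells. Of 9 measured genes of proenkephalin processing and opioid signalling, Penk among them, none was past the fold. Their median of -0.05 is the log2 ratio of Penk itself, a gene of the selection rule.

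Cdkn1c, which encodes the cell cycle inhibitor p57 and is imprinted (chromosome 7, 143458339 to 143461050, minus strand, GRCm38), was the only gene of the medullary list past the fold, and its ratio rested on few cells. It stood at 370 CPM in the control and 567 CPM in the exposed library, a log2 ratio of 0.60 that was 0.22 without the 5 cells with most Cdkn1c UMIs in each library. Those 5 cells held 228 of 1260 control UMIs and 594 of 1580 exposed UMIs, the highest cell 88 and 198. Cells with 10 or more Cdkn1c UMIs numbered 18 in each library, 1.43% (0.850 to 2.25) of the control and 2.30% (1.37 to 3.61) of the exposed cells, and the intervals overlap. Of these 18 cells 83.3% and 94.4% had a Penk UMI, and 66.7% and 77.8% an Alx1 UMI, against 10.4% and 16.2% with Alx1 among the other selected cells. Their median depth was 2808.5 and 4295 UMIs, beside 2669.5 and 3533 in the others. The count of 10 UMIs was chosen after the values were seen. In cells with Penk Cdkn1c stood at 627 and 1067 CPM, and in cells without at 225 and 243 CPM. The share of all selected cells with any Cdkn1c UMI was 41.2% and 54.8%, or 34.4% and 38.9% after thinning.

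**Figure D5:**
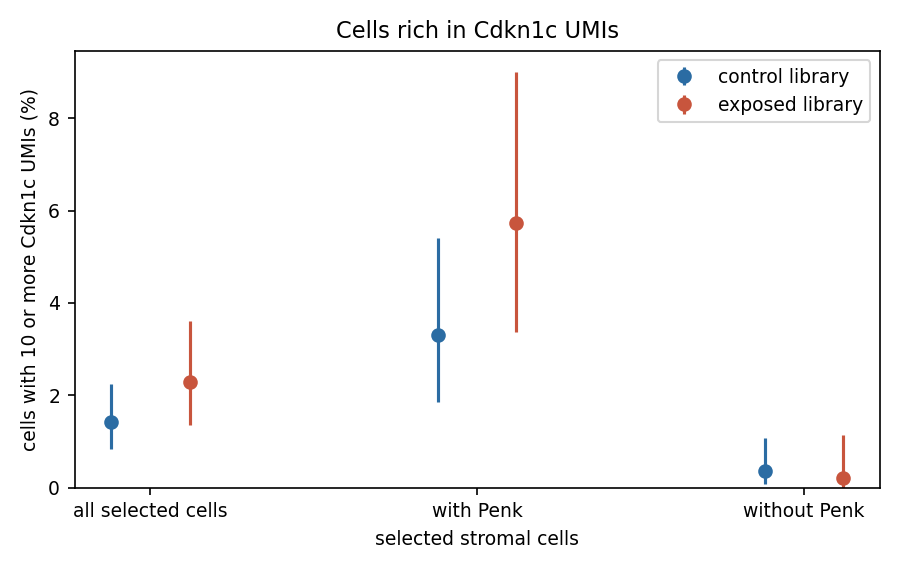
Percent of cells with 10 or more Cdkn1c UMIs (y axis) among all selected stromal cells and those with and without a Penk UMI (x axis), in the control (blue) and exposed (red) libraries; vertical lines are 95% Clopper-Pearson intervals. The share is 3.31% and 5.72% in cells with Penk and 0.373% and 0.206% in cells without, and the intervals of the libraries overlap in each group.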

How the data were processed

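Single cells of whole kidney were profiled with the 10x Genomics Chromium 3' kit (version 2 chemistry), after dissociation with trypsin and freezing, per the labels' protocols; Cell Ranger 2.2.0 and build mm10 (GRCm38) are named in the submitters' processing notes. The authors deposited UMI counts per gene and cell without normalization, log-normalized values that were not used, and a table of cells. Per the file headers, that table gives the UMI counts of each cell, the percent of mitochondrial UMIs and a doublet score. No source used here gives filters applied before deposit. Gene names are those of the files, with capitals from RefSeq; coordinates are of GENCODE annotation for GRCm38.

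Counts of the selected cells were summed per library over the 8930 genes listed for both libraries, which hold 99.4% of the UMIs, and scaled to CPM. Selected cells held 3428709 control and 2802995 exposed UMIs. Doublets were treated by the authors' score alone. Log2 ratios used 10 CPM added and genes with at least 50 UMIs, which understates differences of low genes. Ratio intervals are 95% exact conditional binomial intervals. The scripts were tested on simulated data (numpy 2.4.6, pandas 2.3.3, scipy 1.17.1, Python 3.11.15). Named between libraries were the 12 highest and 12 lowest genes whose interval leaves out 1 and whose log2 ratio kept 0.75 of its size with the 5 cells richest in it left out; named between groups of cells were the 8 highest and 8 lowest; from each list the highest, the lowest and any gene it is named for could be named, and other genes were chosen as examples after their values were seen. The selection rule and the gene lists were chosen with earlier results of these data known. The closing section gives the alternatives. Results for 1 gene of the selection rule are not reported here.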

Additional observations from a re-analysis of the deposited data

Results flagged for a closer look

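Ren1, which encodes renin, had a lower level in the exposed than in the control selected stromal cells, 5.38 against 12.03 CPM (log2 ratio -0.52), and a higher one in all other cells, 320 against 104 CPM (log2 ratio 1.54). The opposite directions drew attention to it, and the difference was not tested. The stromal groups among the other cells were split. In cycling stroma Ren1 stood at 4.80 CPM in the control and 440 CPM in the exposed library (log2 ratio 4.92). In Dcn-rich stroma it stood at 4.65 and 2.88 CPM (log2 ratio -0.19). In the selected cells the Ren1 level rested on 41 control and 15 exposed UMIs in 14 and 7 cells. There the log2 ratio was -0.24 without the 5 cells with most Ren1 UMIs in each library.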

How the results depend on the processing

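The difference in the share of selected cells stayed within the counting interval under all 7 alternatives, from -0.438 to 0.994 points. The counts of genes past the fold between the libraries, 28 higher and 102 lower, depended on the settings. They were 135 and 281 with 1 CPM added, 2 and 16 with 50 CPM added, and 5 and 36 among genes with at least 200 UMIs, in each case by construction. With fewer cells or UMIs there were 73 higher and 133 lower in cells thinned to 2000 UMIs, 88 and 147 when the rule was applied to thinned cells, 46 and 110 in cells with no cycling gene, and 105 and 183 in cells with Penk; the cause was not tested. Directions turned for the interferon list (-0.046 among genes with at least 200 UMIs, -0.14 in cells with Penk) and for the cortical stroma list (0.035 among genes with at least 200 UMIs, 0.055 in thinned cells, 0.034 with the rule on thinned cells). The direction also turned for Ptn, exposed over control (-0.0057 in thinned cells), and, with the rule on thinned cells, for the renin-angiotensin list (0.073) and the hedgehog list (0.039). The counts against Dcn-rich stroma, 15 and 128, were 20 and 119 with its cells limited to 2 cycling genes. The settings on cycling genes, Penk, blood cell UMIs and thinning before the rule were chosen after seeing the data. No paired analysis was possible because each group is 1 library, and the depth per cell limits all statements on genes under about 10 CPM.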
